A study of Mus musculus with 8 samples.

Results

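The TGF-beta ligands, their receptors and the proteins that hold latent TGF-beta in the matrix were followed as a set of 10 genes, taken by name from a table of 55679 mouse genes. The set held 3 ligand genes (Tgfb1, Tgfb2 and Tgfb3), 3 receptor genes (Tgfbr1, Tgfbr2 and Tgfbr3) and 4 genes of latent-binding proteins (Ltbp1, Ltbp2, Ltbp3 and Ltbp4). All 10 were present in the table and all 10 passed the filter on low values, which kept 19364 genes. RNA-seq had been done on the left ventricle of male wild-type C57BL/6J mice that received saline (control group, 4 libraries) or angiotensin II (ANG II, a peptide hormone that constricts vessels and raises blood pressure) at 1500 ng/kg/min (ANG II group, 4 libraries) for 7 days from a pump under the skin. Neither group carried a transgene or a deletion, and no age was given. The study asked which genes, and which immune processes, differ in the heart muscle that thickens under high blood pressure.

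TGF-beta is made as a precursor whose propeptide stays wrapped around the growth factor after cleavage, so that the secreted complex is latent. Latent-binding proteins bind this complex and anchor it to fibrillin and fibronectin in the extracellular matrix, where integrins, thrombospondin and proteases can release the growth factor. Released TGF-beta is bound by the type II receptor (Tgfbr2), which recruits and phosphorylates the type I receptor (Tgfbr1), and this kinase phosphorylates Smad2 and Smad3, which enter the nucleus with Smad4. The coreceptor betaglycan (Tgfbr3) presents ligand, Tgfb2 above all, to the type II receptor. In the heart, the pathway is known for turning fibroblasts into matrix-producing myofibroblasts.

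Ligand genes have to be told apart by sequence, since their growth factor domains are alike. The last 300 coding bases of Tgfb1 and Tgfb3, the most abundant ligand gene in control and the one that changed the most, encode most of the mature growth factor and are shown from GENCODE M21 (GRCm38), stop codon included, with capitals where both genes carry the same base. Each stretch was joined from 2 coding exons, so the coordinates span an intron: chromosome 7, 25704138 to 25704942, plus strand for Tgfb1, and chromosome 12, 86057780 to 86059040, minus strand for Tgfb3.
Tgfb1: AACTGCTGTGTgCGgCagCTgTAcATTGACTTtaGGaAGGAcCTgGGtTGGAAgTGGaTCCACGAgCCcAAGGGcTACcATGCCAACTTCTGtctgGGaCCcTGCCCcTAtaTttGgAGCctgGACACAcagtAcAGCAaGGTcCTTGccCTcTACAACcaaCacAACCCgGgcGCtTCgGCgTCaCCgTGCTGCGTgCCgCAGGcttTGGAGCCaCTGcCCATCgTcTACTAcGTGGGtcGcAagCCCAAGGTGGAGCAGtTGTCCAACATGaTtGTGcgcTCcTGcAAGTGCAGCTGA
Tgfb3: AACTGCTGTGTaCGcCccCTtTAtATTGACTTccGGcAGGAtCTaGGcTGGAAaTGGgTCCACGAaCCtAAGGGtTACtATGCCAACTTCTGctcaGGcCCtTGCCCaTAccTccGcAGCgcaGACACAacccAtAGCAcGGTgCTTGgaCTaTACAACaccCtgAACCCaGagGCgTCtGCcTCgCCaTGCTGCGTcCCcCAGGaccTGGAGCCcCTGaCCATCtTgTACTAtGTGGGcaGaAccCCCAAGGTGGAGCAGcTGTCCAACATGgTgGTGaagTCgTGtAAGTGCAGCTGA
Of the 300 bases, 221 (73.7%) were the same in both genes, and the longest identical run was 15 bases. Over whole transcripts, Tgfb1 and Tgfb3 had no word of 50 bases in common. Among the 10 genes, words of 50 bases that another gene also holds made up at most 8.79%, in Tgfb3, and then 8.58%, in Ltbp2, and in both cases most of them came from annotated genes on the opposite strand, Gm48008 and Gm37804 for Tgfb3 and D030025P21Rik for Ltbp2. These neighbours held at most 3 fragments in any library.

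Of the 10 genes, 7 were higher under ANG II, by the thresholds used throughout (limma on log2(FPKM + 1), Benjamini-Hochberg adjusted p under 0.05 and an absolute log2 fold change above 0.5). FPKM is the number of fragments per kilobase of transcript and per mapped fragment of the library, scaled up by a constant. All 3 ligands, 2 of 3 receptors and 2 of 4 latent-binding proteins were called higher, and 3 genes (Tgfbr3, Ltbp1 and Ltbp4) were not called. Over all genes tested, 14.0% were called higher and 15.4% in either direction. Without the fold change threshold, 8 of the 10 genes had an adjusted p under 0.05, where 33.3% of all genes did, and in the same 8 genes every ANG II library lay above every control library, which held for 28.7% of all genes. The median log2 fold change of the 10 genes was 1.10, against 0.15 over all genes tested. In a bulk tissue, a change in the number of cells that express a gene and a change in the RNA per cell cannot be told apart.

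**Figure D1:**
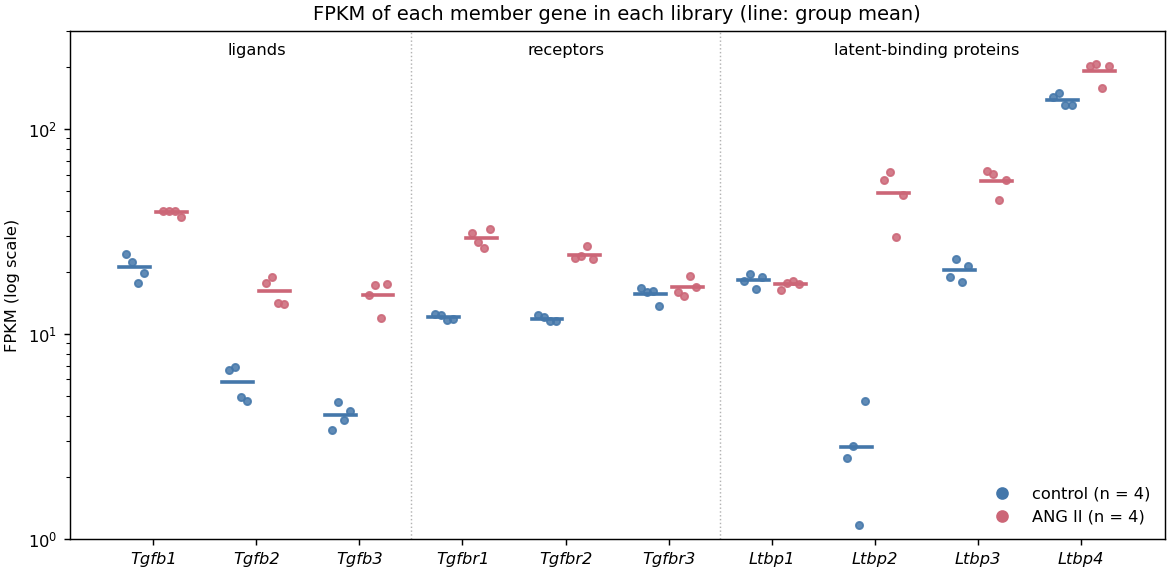
FPKM of the 10 genes on a log axis, with 1 point per library (blue, 4 control; red, 4 ANG II) and a line at each group mean. The groups overlapped for Tgfbr3 and Ltbp1 and were apart for the other 8 genes, by the widest margin for Ltbp2.

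Among the ligands, Tgfb1, the form best known from fibroblasts, platelets and immune cells, had the highest level in both groups. Its FPKM was 24.6, 22.5, 17.7 and 19.8 in control libraries 1 to 4 and 39.7, 39.8, 39.8 and 37.3 in ANG II libraries 1 to 4. The ANG II libraries were tightly grouped, with a coefficient of variation of 3.12% against 14.3% in control. The group means were 21.1 ± 3.02 FPKM in control and 39.2 ± 1.22 FPKM under ANG II (SD, n = 4 each), and the log2 fold change was 0.87 (SE 0.091, adjusted p = 1.10e-04).

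Tgfb2, the ligand that depends most on betaglycan, was read at 6.70, 6.93, 4.92 and 4.72 FPKM in the control libraries and at 17.8, 18.9, 14.1 and 14.0 FPKM under ANG II. In each group libraries 1 and 2 were the higher pair, although same-numbered libraries did not deviate together across all genes. Its log2 fold change was 1.34 (SE 0.14, adjusted p = 1.10e-04), and the lowest ANG II library stood 2.02-fold above the highest control library.

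Tgfb3 had the largest log2 fold change of the ligands. Its ratio to Tgfb2 still overlapped between the groups, at 0.507 to 0.892 in control and 0.843 to 1.25 under ANG II. By the deposited values Tgfb3 had the lowest ligand level in control, at 3.39, 4.68, 3.82 and 4.21 FPKM. It reached 15.5, 17.3, 11.9 and 17.5 FPKM under ANG II. With lengths taken from the longest transcripts, Tgfb2 was the lowest ligand in control instead. ANG II library 3 was the lowest of its group and still 2.55-fold above the highest control library. The log2 fold change was 1.71 (SE 0.129, adjusted p = 1.83e-05), which placed Tgfb3 at the 99.1 percentile of all genes tested. For each of the 3 ligands, and for the other 5 genes whose groups did not overlap, the exact two-sided permutation test over 70 allocations of the 8 libraries gave p = 0.0286, the smallest value that 4 against 4 allows.

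The receptors divided between the signalling pair and the coreceptor. Tgfbr1, the type I receptor kinase, was measured at 12.5, 12.4, 11.7 and 11.8 FPKM in control and at 31.0, 28.0, 26.3 and 32.6 FPKM under ANG II. Tgfbr2, the type II receptor that binds ligand first, was measured at 12.3, 12.1, 11.5 and 11.6 FPKM in control and at 23.5, 24.0, 26.9 and 23.2 FPKM under ANG II. Both were even across the control libraries (coefficients of variation of 3.34% and 3.24%), and both lay apart between groups. The log2 fold change was 1.21 for Tgfbr1 (SE 0.0734, adjusted p = 5.74e-06) and 0.98 for Tgfbr2 (SE 0.0636, adjusted p = 8.30e-06).

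Tgfbr3 overlapped between the groups. Its FPKM was 16.7, 16.0, 16.1 and 13.8 in control and 16.0, 15.2, 19.3 and 17.0 under ANG II, so that 2 ANG II libraries lay above every control library and the lowest control library lay below every ANG II library. The log2 fold change of 0.10 (95% interval -0.09 to 0.30, adjusted p = 0.411) did not pass the test, and the exact two-sided permutation test gave p = 0.371. Its direction was not settled, because the estimate fell to between -0.14 and -0.040 under the 3 other scalings of the libraries. The interval leaves out a rise of the size seen for either signalling receptor.

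Ltbp2 changed more than any other of the 10 genes. It codes for a fibrillin-associated matrix protein that, unlike its relatives, is not known to bind latent TGF-beta. By group mean it was the lowest of the 10 genes in control, at 2.48, 2.83, 1.17 and 4.71 FPKM. In control library 4 it lay above Tgfb3 (4.21 FPKM). Under ANG II it reached 56.6, 61.7, 29.7 and 47.6 FPKM. Control library 3 and ANG II library 3 were the lowest of their groups, and the lowest ANG II library was 6.31-fold above the highest control library. The mean rose 17.5-fold, from 2.80 ± 1.46 to 48.9 ± 14.1 FPKM (SD, n = 4 each), and the log2 fold change of 3.75 (SE 0.294, adjusted p = 2.24e-05) ranked 12 among the 19364 genes tested. On the log2(FPKM + 1) scale this value understates the change of a gene so low in control.

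Ltbp3, which binds latent TGF-beta and helps its secretion, was at 19.0, 23.1, 17.9 and 21.6 FPKM in control and at 62.1, 60.4, 45.1 and 56.2 FPKM under ANG II, with a log2 fold change of 1.41 (SE 0.111, adjusted p = 2.29e-05). Ltbp4, a latent-binding protein that also guides elastic fibre assembly, was the most abundant of the 10 genes by far, at 144, 150, 131 and 132 FPKM in control and 202, 207, 159 and 202 FPKM under ANG II. The groups lay apart, but only by a factor of 1.06 between the nearest libraries, and the lowest ANG II value came from library 3. The log2 fold change of 0.46 (SE 0.0879, adjusted p = 0.00305) passed the test and missed the fold change threshold. Under median-of-ratios scaling it was 0.23 and did not pass the test (adjusted p = 0.0629), and under quantile normalization it was 0.28 (adjusted p = 0.0417). Without ANG II library 3 it was 0.55 (adjusted p = 2.43e-04) and Ltbp4 was called.

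Ltbp1, the latent-binding protein first described with the TGF-beta complex, did not pass the test. It was at 18.1, 19.5, 16.6 and 19.0 FPKM in control and at 16.4, 17.8, 18.2 and 17.6 FPKM under ANG II, with the ranges overlapping. The log2 fold change was -0.06 (95% interval -0.21 to 0.09, adjusted p = 0.515; exact two-sided permutation test, p = 0.286). The estimate was negative in all 17 alternatives. Scaling the libraries so that the median gene lay closer to 0 gave -0.28 (adjusted p = 0.0132, median of ratios) and -0.30 (adjusted p = 0.00856, quantile), still short of the fold change threshold, and leaving out mitochondrially encoded genes and the 10 most abundant genes gave -0.20 (adjusted p = 0.0523), which did not pass the test.

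**Figure D2:**
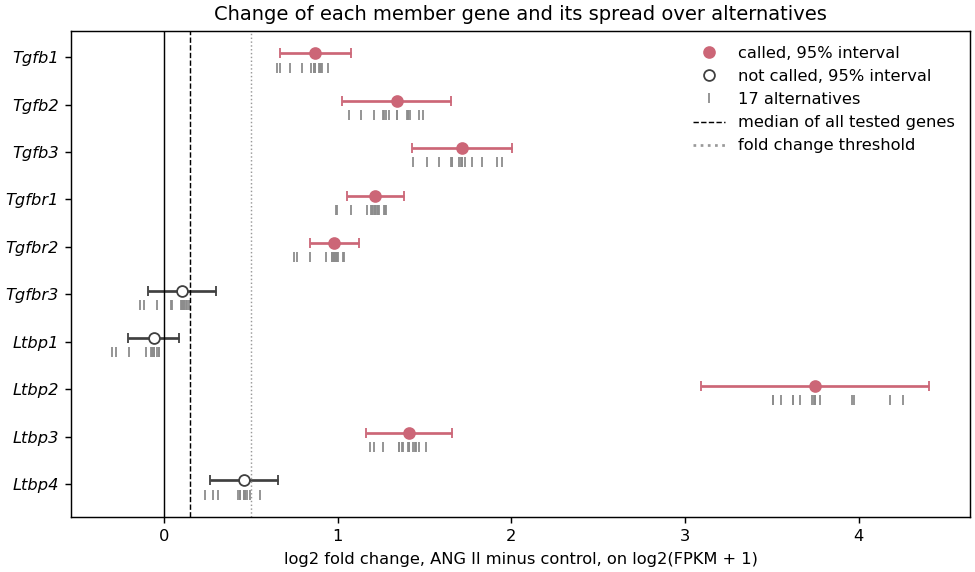
Log2 fold change of the 10 genes with its 95% interval (filled red, called; open, not called), and below each the values from 17 alternative settings as ticks. The dashed line marks the median of all genes tested at 0.15 and the dotted line the threshold at 0.5. Only Tgfbr3 has ticks on both sides of 0.

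The order of levels changed with the treatment. In control, Ltbp4 (139 FPKM) stood above a group of genes with overlapping neighbours, from Tgfb1 (21.1 FPKM) through Ltbp3 and Ltbp1 to Tgfbr3 (15.7 FPKM), followed by Tgfbr1 and Tgfbr2, which overlapped at 12.1 and 11.9 FPKM, then Tgfb2, and last Tgfb3 and Ltbp2, which overlapped. Under ANG II, Ltbp2 moved from the last place to the third, where its range overlapped those of Ltbp3 above it and Tgfb1 below it. Tgfbr1 and Tgfbr2 came next and overlapped each other. Ltbp1, Tgfbr3, Tgfb2 and Tgfb3 ended the order between 17.5 and 15.6 FPKM, and no neighbours among these 4 differed beyond their spread. Levels between genes depend on the transcript length used: with the longest GENCODE transcript in place of the mean length that fits the deposited values, Tgfb3, which has 1 transcript, moved from place 10 to place 6 under ANG II. In control, Tgfb3 (mean 4.03) then lay above Tgfb2 (2.08), and Tgfbr2 (8.48) lay above Tgfbr1 (5.27).

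Within each role, the shares of the genes shifted, and a share within a library does not depend on how the libraries are scaled to each other. Tgfb1 went from 65.9 to 70.9% of the ligand FPKM in control to 52.4 to 60.4% under ANG II, and Tgfb3 from 9.80 to 14.7% to 18.1 to 25.4%. The ranges did not overlap for either gene. For Tgfb2 the shares were 16.4 to 20.3% and 20.4 to 24.8%, and they overlapped once lengths were taken from the longest transcripts. The ligand sum was 31.0 ± 4.05 FPKM in control and 70.9 ± 4.51 FPKM under ANG II (SD, n = 4 each).

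Betaglycan took a smaller share of the receptors under ANG II. Tgfbr3 made up 37.0 to 41.0% of the receptor FPKM in control and 22.7 to 26.6% under ANG II, while Tgfbr1 went from 29.7 to 31.8% to 36.3 to 44.8%. The ratio of Tgfbr1 to Tgfbr2 was 1.01, 1.03, 1.01 and 1.02 in the control libraries, a near constant value, and 1.32, 1.17, 0.979 and 1.41 under ANG II, so the groups overlapped through ANG II library 3. That library had both the lowest Tgfbr1 and the highest Tgfbr2 of its group.

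Among the latent-binding proteins, Ltbp2 went from 0.702 to 2.66% of their summed FPKM to 11.8 to 17.8%. Ltbp4 remained the largest part, with 74.4 to 78.7% in control and 59.7 to 63.0% under ANG II, and Ltbp1 went from 9.85 to 10.8% to 4.86 to 7.22%. The ratio of Ltbp2 to Ltbp1 was 0.15 ± 0.073 in control and 2.82 ± 0.862 under ANG II (SD, n = 4 each). These shares are given as descriptions, without a test.

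**Figure D3:**
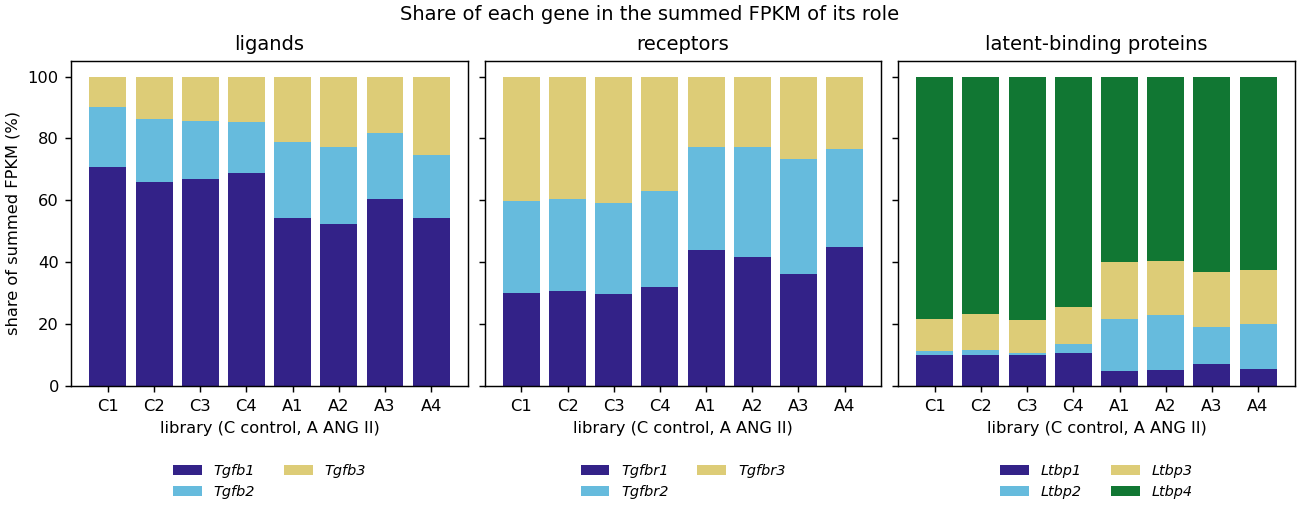
Stacked bars of the share, in percent, that each gene took of the summed FPKM of its role in each of the 8 libraries (C1 to C4, control; A1 to A4, ANG II), in panels for ligands, receptors and latent-binding proteins. Tgfb1, Tgfbr3 and Ltbp4 take smaller shares in the ANG II bars, and the Ltbp2 band, at most 2.66% in control, reaches 17.8%.

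Ltbp2 and Ltbp1, the latent-binding proteins with the largest and the smallest change, are shown with the 250 bases before their RefSeq starts (GRCm38.p6), with motif matches in capitals. RefSeq promoter entries were matched for 8 of the 10 genes, and none for Tgfb3 and Tgfbr3. The Ltbp2 stretch is chr12:84876492-84876741 on the minus strand, and the outermost GENCODE start lies inside it. For Ltbp1 the first of 2 starts is shown, chr17:75005279-75005528 on the plus strand.
Ltbp2: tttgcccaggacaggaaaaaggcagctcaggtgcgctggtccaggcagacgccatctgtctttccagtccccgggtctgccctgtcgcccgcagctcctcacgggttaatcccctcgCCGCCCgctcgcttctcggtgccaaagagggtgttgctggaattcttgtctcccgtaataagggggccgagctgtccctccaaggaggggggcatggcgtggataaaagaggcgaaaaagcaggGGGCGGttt
Ltbp1: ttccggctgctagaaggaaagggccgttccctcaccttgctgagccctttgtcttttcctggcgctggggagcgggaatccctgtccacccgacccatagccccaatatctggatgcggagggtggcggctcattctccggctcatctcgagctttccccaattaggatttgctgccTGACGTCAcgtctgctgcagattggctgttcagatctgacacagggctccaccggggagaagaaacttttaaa
Both strands were searched for a TATA box as TATAAA, an Sp1 word as GGGCGG, a SMAD word as CAGACA, a TEAD word as GGAATG, an AP-1 word as TGACTCA and a CRE as TGACGTCA, none of which contains another. Ltbp2 held 2 Sp1 words, and 32.7% of 32851 promoters of this length held at least 1. The first Ltbp1 start held 1 CRE, and 1.55% of promoters held at least 1. The second Ltbp1 start held no CRE and 2 SMAD words, and at least 1 SMAD word was held by 17.1% of promoters. Of the others, Tgfb1 held 5 Sp1 words, Tgfb2 held 1 TATA box, of which 12.4% of promoters held at least 1, and 1 SMAD word, and Tgfbr1 held 2 Sp1 words at its first start and 1 SMAD word at its second. The 3 Ltbp4 starts held 3 to 7 Sp1 words, in windows that overlap for 2 of them, and Tgfbr2 and Ltbp3 held none of the words. No promoter of the 8 genes held the AP-1 or the TEAD word, which 4.46% and 12.6% of promoters hold. A match is a run of letters and not a bound site.

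The rest of the pathway was read from 4 lists, chosen with earlier results of these data known. Of the genes that anchor or activate latent TGF-beta, 16 of 19 were called higher, 1 lower and 2 not, beside 14.0% higher and 1.41% lower over all genes, with a median log2 fold change of 0.97. Fn1, the fibronectin to which the latent complex binds, had the largest change, from 12.9 to 17.6 FPKM in control to 186 to 225 FPKM under ANG II (log2 fold change 3.63, adjusted p = 1.99e-07). Thbs1, a thrombospondin that activates latent TGF-beta (2.21), and Mmp14, a membrane protease (2.14), followed, with adjusted p-values of 1.56e-04 and 1.21e-06. The exception was Itgb6, the epithelial integrin subunit that releases TGF-beta, which fell from 8.94 ± 1.57 to 5.01 ± 0.872 FPKM (SD, n = 4 each; log2 fold change -0.72, adjusted p = 0.00300). Of the other integrin subunits of the list, Itgav, Itgb1, Itgb3, Itgb5 and Itgb8 were all called higher, with log2 fold changes of 0.57 to 1.23.

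Among 13 other receptors, Smads and adaptors, 1 was called higher and 12 were not, near the 15.4% called over all genes, with a median log2 fold change of 0.24. The 1 call was Acvrl1, an endothelial type I receptor, whose value of 0.50 (adjusted p = 0.00215) lay at the threshold and did not hold in several alternatives. Smad2 (log2 fold change 0.31, adjusted p = 0.00773) and Smad4 (0.30, adjusted p = 0.0191) passed the test without reaching the fold change threshold, and Smad3 (0.18, adjusted p = 0.117) did not pass it.

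Of the inhibitors, 11 of 17 were called higher, beside 14.0% of all genes, and 6 were not called (median log2 fold change 0.73). The proteoglycans Fmod (2.29, adjusted p = 0.00529) and Bgn (2.18, adjusted p = 4.70e-06), which can bind TGF-beta, and Tgif1 (1.47, adjusted p = 9.80e-05), a corepressor of Smads, had the largest log2 fold changes. Smad7, the inhibitory Smad that the pathway itself induces, rose by 0.88 (adjusted p = 8.21e-04), from 10.4 ± 2.33 to 19.8 ± 2.12 FPKM (SD, n = 4 each).

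Known target genes of the pathway were called higher in 19 of 22 cases, beside the same 14.0% of all genes, with a median log2 fold change of 2.13; Ltbp2 is itself on this list and Fn1 is on 2 of the lists. Cthrc1, a secreted protein of activated fibroblasts, went from 0.0753 to 0.259 FPKM in control to 25.1 to 42.1 FPKM (log2 fold change 4.83, adjusted p = 2.46e-07). Postn, the matrix protein periostin, rose by 4.30 (adjusted p = 2.01e-06), and Timp1, an inhibitor of metalloproteinases, by 3.99 (adjusted p = 7.96e-06). The 3 targets not called were Acta2, the smooth muscle actin of myofibroblasts (-0.20, adjusted p = 0.385), Tgfb1i1 (0.46, adjusted p = 0.00225) and Tagln. Tagln was listed at no more than 6 fragments in any library, and 67.9% of its exon bases lie under genes on the opposite strand, so its value is uncertain.

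**Figure D4:**
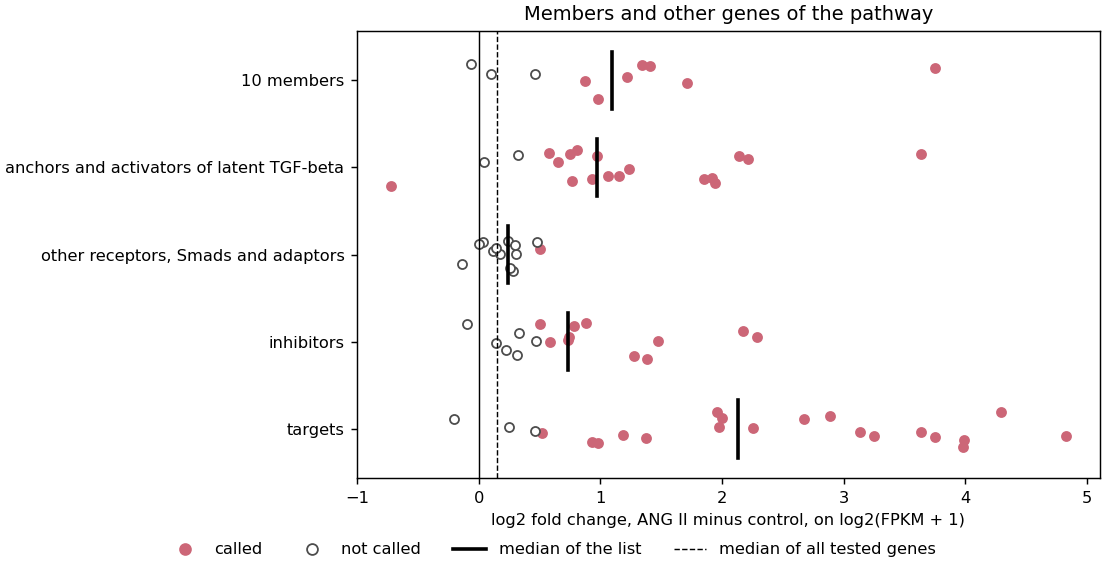
Log2 fold change of the 10 genes and of 4 lists of pathway genes, with 1 point per gene in each list (filled, called; open, not called), a bar at each list's median and a dashed line at the median of all genes tested (0.15). Ltbp2 is drawn among the 10 genes and again among the targets, and Fn1 is drawn in 2 lists. The medians run from 0.24 for the other receptors, Smads and adaptors to 2.13 for the targets, with 1.10 for the 10 genes. Points are spread vertically for legibility.

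The genes whose pattern over the 8 libraries lay closest to each called gene were sought among 11986 genes, by the root mean square difference of log2(FPKM + 1) after centring each gene. Ltbp2 was nearest to Cilp (0.13), a cartilage matrix protein, and Thbs4 (0.159). Tgfb3 was nearest to Loxl1 (0.114), a crosslinking enzyme of elastin, and Col6a1 (0.13), and Ltbp3 to the collagens Col15a1 (0.0677) and Col6a2 (0.0729). The nearest genes were Eml3 (0.0578) and Thsd7a (0.0585) for Tgfb1, Ncaph (0.112) and Adcy7 (0.118) for Tgfb2, Nid1 (0.0731) and Dock10 (0.0753) for Tgfbr1, and Sirpa (0.0569) and Rab40b (0.0603) for Tgfbr2. All of these genes share the libraries and the scaling with the gene they were matched to.

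Cell type markers were read beside the 10 genes. Cardiomyocyte genes had the highest sum in every library, as the tissue label has it. Their summed FPKM was 30785 to 31618 in control and 22506 to 26103 under ANG II, with 2 of 6 markers called lower, where 1.41% of all genes were. Fibroblast markers summed to 1064 to 1421 and 1729 to 2097 FPKM, with 7 of 8 called higher. Without Col1a1, which is also on the target list, the fibroblast sums were 1018 to 1337 and 1104 to 1502 FPKM and overlapped, and Gsn, the most abundant of these markers, went the other way (log2 fold change -0.50, adjusted p = 0.0280) without being called. Macrophage markers summed to 232 to 298 and 503 to 705 FPKM, with 7 of 8 called higher. Of the endothelial markers 1 of 6 was called higher, near the 14.0% over all genes, and of the smooth muscle and pericyte markers 2 of 7 were called higher and 1 lower. Platelet markers summed to 21.6 to 30.2 FPKM in control and 36.1 to 88.0 FPKM under ANG II, the most in ANG II library 2. Of these markers 1 of 6 was called higher, near the 14.0% over all genes. It was Pf4, which made up most of the sum in every library, at 16.5 to 22.4 and 31.0 to 54.5 FPKM (log2 fold change 1.11, adjusted p = 7.99e-04). The 5 other platelet markers were not called (lowest adjusted p 0.178). T cell markers summed to at most 12.3 FPKM, with 2 of 6 called higher, and mesothelial and epicardial markers to at most 9.26 FPKM, where the lowest adjusted p of 5 was 0.406. Their part in the changes of the 10 genes was not tested.

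Atrial markers summed to 7.72 to 58.5 FPKM in control and 195 to 339 FPKM under ANG II. Of 5 listed, 4 were tested and 2 called higher, beside 14.0% of all genes. These were Nppa (log2 fold change 3.89, adjusted p = 1.21e-06), at 6.56 to 11.1 and 109 to 161 FPKM, and Sln (1.69, adjusted p = 0.0291). Bmp10 was at or near 0 throughout, with at most 2 fragments. Myl7 and Myl4 differed widely between libraries of the same group and were not called (adjusted p = 0.0557 for each). Myl7, the atrial myosin light chain, was at 19.8, 21.1, 0.205 and 6.76 FPKM in control and at 51.1, 28.2, 89.6 and 21.7 FPKM under ANG II, lowest in control library 3 and highest in ANG II library 3. These libraries were also the lowest of their groups for 7 and 5 of the 10 genes. All 7 calls held when either of them was left out. Mitochondrially encoded genes took 26.3 to 27.0% of fragments in control and 19.2 to 21.8% under ANG II, the most in ANG II library 3. Depth was even, at 14455654 to 16564828 fragments per library, and the 10 genes were read from 72 fragments (Ltbp2 in 1 control library) to 10012 (Ltbp4).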

How the data were processed

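The authors deposited 1 table of FPKM values for 8 left ventricle libraries, with 1 column per library. A further deposit that the study names was not used here. The submitters' processing notes name Bowtie2, HISAT and RSEM, while the genome build, the annotation and the use of strand were not given in the sources used here. The extract protocol in the labels speaks of another cell source than the tissue label, and the tissue label was used. Messenger RNA had been enriched on oligo(dT) beads. The study's text calls its samples biological replicates and gives more per group than the 4 analysed here. Groups came from the treatment labels. P-values set the difference between the groups against the spread between these libraries.

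Fragments were recovered from the steps of the deposited FPKM values with mean transcript lengths from GENCODE M21, which held 55141 of the gene IDs. Of values under 60 fragments, at least 97.6% were whole within 0.05. Of the 55679 genes, 27083 were at 0 in all libraries. Counting error only is covered by such fragment numbers.

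Groups were compared on log2(FPKM + 1) by limma (version 3.58.1, R 4.3.3; eBayes with trend) for genes averaging 0.1 FPKM or more, with two-sided p-values adjusted by Benjamini-Hochberg over all 19364 genes. The study names limma and the thresholds, and the pseudocount, the filter and base 2 were chosen here. On simulated data with 200 of 19079 genes changed 3-fold, limma called 177 of them and 10 unchanged genes, and with none changed it called 1. The changed genes averaged at least 1 FPKM and went equally in both directions. All genes had the same dispersion, and no shift in the mitochondrial share was built in. The real data, where most calls were higher, differ in this, so the simulation does not cover errors from scaling. Other steps ran in Python 3.11.15 with scipy 1.17.1, pandas 2.3.3, numpy 2.4.6 and matplotlib 3.10.9. The members and the lists were chosen with earlier results of these data known, and the lists were not adjusted or tested on their own. The text names all members, up to 3 called genes per pathway list (those that moved furthest), and the 2 genes nearest in pattern to each called member; further genes were named after their values were seen. Some sequence is not reported here. Ccn2 was matched by gene ID, being listed as Ctgf. Alternatives changed the pseudocount, filter, scaling, variance trend, thresholds, replicate block, method (voom on the recovered fragments) and libraries included.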

Additional observations from a re-analysis of the deposited data

Results flagged for a closer look

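In 20 sets of 4 libraries (10 genes, 2 groups), a library that stood far from the other 3 was sought with Dixon's test, which by chance marks about 1 in 20 sets, and 2 were marked. For Tgfb1, ANG II library 4 was the lowest at 37.3 FPKM, while the other 3 lay between 39.7 and 39.8 FPKM. For Ltbp4, ANG II library 3 was the lowest at 159 FPKM, while the other 3 lay between 202 and 207 FPKM.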

How the results depend on the processing

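Each of the 10 genes was refitted under 17 alternatives, and 166 of the 170 values kept their direction and their call by both thresholds together. On the adjusted p alone, Ltbp1 passed under median-of-ratios scaling (0.0132) and quantile normalization (0.00856), and Ltbp4 no longer passed under the former (0.0629). Tgfbr3 turned negative under median-of-ratios scaling (-0.12), quantile normalization (-0.14) and without mitochondrially encoded and top 10 genes (-0.040), and Ltbp4 was called without ANG II replicate 3 (0.55). These scalings moved the median of all genes by -0.14, -0.19 and -0.10 and the share of higher calls from 90.8% to 67.5%, 58.9% and 78.4%. Of the 19 alternatives for counts, the number of member genes called was 7 in all but 3, being 8 without ANG II replicate 3, 8 with no fold change threshold and 5 with an absolute log2 fold change above 1. Over all genes, 2981 were called, 6447 with no fold change threshold, 795 with an absolute log2 fold change above 1, and 3987 with voom on the recovered fragments. Above 1, the anchors and activators called fell to 9 and the inhibitors to 5. The 1 other receptor, Smad or adaptor called became 2 with a pseudocount of 0.1 or with voom, 0 under each of the 3 scalings or above 1, 6 with no fold change threshold, and 0 to 2 with 1 library left out. The replicate block changed no member's call and gave 2968 calls. Same-numbered libraries did not deviate together (correlations -0.03 to 0.06), so no sign of pairing was seen, which does not exclude it. With longest transcript lengths, chosen after seeing the data, the change in share was 1.66 percentage points for Tgfb2 (4.06 as reported), 13.6 for Tgfb3 (8.73), -13.8 for Tgfbr3 (-15.6) and 4.53 for Ltbp3 (6.49). At 4 libraries per group, exact tests cannot go below 0.0286.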
